A study of Mus musculus with 8 samples.

Results

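Transcripts of the proteasome and its inducible form were examined in regulatory T cells of mice (Tregs), a CD4+ population that holds immune responses in check. The genes were taken by name: every gene whose symbol begins with Psma, Psmb, Psmc, Psmd, Psme, Psmf or Psmg followed by a digit, without pseudogenes, measured by a probe set with exactly 1 symbol. This gave 50 genes of the 19937 tested. They comprise 5 interferon-inducible subunits (Psmb8, Psmb9, Psmb10, Psme1 and Psme2), 31 constitutive subunits of the core, base and lid, and 14 others. The others are assembly chaperones, further activators, the proteasome-binding protein PI31, a pair of tissue-restricted core subunits and 2 genes that share the prefix without being subunits. Those 2 are Psmc3ip, a meiotic recombination factor, and Psme3ip1, a protein that binds the activator encoded by Psme3. The rule uses no difference between groups; where a gene had several probe sets, the one with the highest mean over the 8 arrays was kept.

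The cells came from bone marrow chimeras. All recipients were CD3ε-/- mice, which cannot form T cells of their own, and all were lethally irradiated. The WT-CD3KO group received wild-type marrow and the IIKO-CD3KO group received IIKO marrow. These groups are called WT and IIKO chimeras here. The labels describe Tregs of the IIKO chimeras as lacking contact of their T cell receptor (TCR) with MHC class II in the periphery, and those of the WT chimeras as having it. They do not name the disrupted class II gene. After 28 days, CD4+ TCRβ+ CD25+ cells were purified with beads and by sorting from peripheral lymph nodes and spleen, and RNA of each sample was hybridized to 1 Affymetrix array. There were 4 arrays per group, labelled as biological replicates. The strain is given as C57BL/6 and the age as 6 to 8 weeks. How many mice a sample pools is not given in the sources used here, so the p-values reflect only how far these samples spread. Tissues of the recipient that are not derived from marrow keep its genotype in both groups, and any other effect of the donor marrow cannot be told apart from the lost contact.

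The proteasome is the protease that degrades proteins tagged with ubiquitin. Its barrel-shaped core has outer rings of alpha subunits and inner rings of beta subunits, and Psmb5, Psmb6 and Psmb7 encode the beta subunits that cut peptide bonds. A regulatory particle of ATPases and other subunits caps the core, binds the ubiquitin chain and unfolds the substrate. In lymphocytes, and in other cells exposed to interferon-γ, newly built cores take up Psmb8 (LMP7) in place of Psmb5, Psmb9 (LMP2) in place of Psmb6 and Psmb10 (MECL-1) in place of Psmb7. This immunoproteasome changes which peptides are made for MHC class I. Psme1 and Psme2 encode PA28α and PA28β, an interferon-inducible ring that opens the core without ubiquitin.

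Promoter sequences, from RefSeq on GRCm38.p6, are shown for 3 inducible genes and for the 3 members with the smallest p. The windows of Psmb10 and Psme2, the other inducible genes, held none of the 4 motifs marked here and are not shown. The marked sites are thus not typical of the inducible subunits. Each runs from 250 bases before to 50 bases after the annotated start, 5′ to 3′ on the gene's own strand. Psmb9 (chr17:34187281-34187580, minus strand) shares 275 of these bases with the window of Tap1, a subunit of the peptide transporter that is read in the opposite direction, and capitals mark a CCAAT box (CCAAT on either strand). In Psmb8 (chr17:34197945-34198244, plus strand) capitals mark the core of an interferon-γ activated site (TTCNNNGAA). In Psme1 (chr14:55578244-55578543, plus strand) they mark the core of an interferon-stimulated response element (GAAA, any 2 bases, GAAA). Capitals in Psmb9, Psme1 and Psme4 show the match as its reverse complement, because it lies on the opposite strand. In Psmb5 (chr14:54617946-54618245, minus strand), Psmb6 (chr11:70525107-70525406, plus strand) and Psme4 (chr11:30771525-30771824, plus strand) they mark the core of the antioxidant response element (TGACNNNGC), the site of the proteasome gene activator NRF1 and of its relative NRF2.
Psmb9: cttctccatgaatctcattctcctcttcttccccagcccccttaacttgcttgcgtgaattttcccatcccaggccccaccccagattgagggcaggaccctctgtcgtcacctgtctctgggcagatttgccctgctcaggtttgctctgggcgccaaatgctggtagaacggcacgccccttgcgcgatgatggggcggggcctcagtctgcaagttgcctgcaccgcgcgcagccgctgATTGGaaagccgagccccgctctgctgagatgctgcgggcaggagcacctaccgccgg
Psmb8: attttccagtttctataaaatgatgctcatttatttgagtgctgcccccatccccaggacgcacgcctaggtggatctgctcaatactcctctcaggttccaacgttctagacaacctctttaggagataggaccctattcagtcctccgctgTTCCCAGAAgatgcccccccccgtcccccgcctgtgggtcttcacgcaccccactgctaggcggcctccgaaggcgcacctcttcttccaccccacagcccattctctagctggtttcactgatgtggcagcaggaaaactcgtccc
Psme1: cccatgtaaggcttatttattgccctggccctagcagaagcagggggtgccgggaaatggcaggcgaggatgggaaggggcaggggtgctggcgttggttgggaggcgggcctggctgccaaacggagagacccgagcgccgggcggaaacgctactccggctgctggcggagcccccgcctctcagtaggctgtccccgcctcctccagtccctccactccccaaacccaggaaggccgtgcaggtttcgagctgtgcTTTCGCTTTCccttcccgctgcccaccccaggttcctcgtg
Psmb5: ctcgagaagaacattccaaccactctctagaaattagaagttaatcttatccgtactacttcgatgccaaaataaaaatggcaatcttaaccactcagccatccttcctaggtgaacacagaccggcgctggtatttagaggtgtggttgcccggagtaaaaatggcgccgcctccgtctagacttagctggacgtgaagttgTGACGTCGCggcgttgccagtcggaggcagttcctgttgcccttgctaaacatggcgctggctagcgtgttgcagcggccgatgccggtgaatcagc
Psmb6: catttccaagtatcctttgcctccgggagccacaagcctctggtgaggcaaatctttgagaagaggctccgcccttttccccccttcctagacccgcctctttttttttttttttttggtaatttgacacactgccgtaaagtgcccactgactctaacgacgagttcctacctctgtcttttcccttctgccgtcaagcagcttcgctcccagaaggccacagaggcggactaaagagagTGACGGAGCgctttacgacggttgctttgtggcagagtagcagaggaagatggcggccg
Psme4: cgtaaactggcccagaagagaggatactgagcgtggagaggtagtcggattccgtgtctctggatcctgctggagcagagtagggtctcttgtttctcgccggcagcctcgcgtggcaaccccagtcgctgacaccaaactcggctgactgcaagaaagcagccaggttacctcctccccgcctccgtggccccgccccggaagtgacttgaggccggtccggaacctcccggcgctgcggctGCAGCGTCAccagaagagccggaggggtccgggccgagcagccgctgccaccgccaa

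The 4 motifs were searched on both strands in the windows of the 42 members that have one; the other 8 have no entry in the table used. The motifs were picked from textbook knowledge with the expression results known. The antioxidant response element core was found in 6 members (Psmb5, Psmb6, Psmc6, Psmd9, Psmd12 and Psme4), and in 13.0% of the members' 46 windows against 12.4% of all 32851 windows. The interferon-stimulated core was found in 5 members (Psmb3, Psmd4, Psmd9, Psme1 and Psmg4), and in 10.9% of member windows against 3.44% of all. The interferon-γ activated core was found in Psmb8, Psmd2 and Psmg1, in 6.52% against 8.30%. CCAAT boxes were in 34.8% against 37.4%. A match is a description of the letters only. Overlaps between matches of different motifs were not counted.

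The purified cells carried the transcripts of their label. Foxp3, the lineage factor of Tregs, lay at 10.53 to 10.81 on all arrays (log2), and Cd3e, a subunit of the TCR complex, at 11.81 to 11.97. Of 8 Treg and T cell markers 0 passed the test between the groups, where 0.286% of all genes tested did. Nor did any of the measured markers of the B lineage (8), of myeloid cells (13), of cytotoxic lymphocytes (8) or of erythroid cells (3). Nkg7, of the cytotoxic list, came nearest, with a difference of -0.35 (limma adjusted p = 0.0847). Its groups did not overlap, nor did those of Cd8a, Klrb1c and the myeloid marker Siglech. All were lower in IIKO chimeras, as for 7.69% of all genes. Klrk1, of the cytotoxic list, had the opposite sign (0.45, adjusted p = 0.193). It lay wholly higher, as did the Treg markers Il2ra (CD25), Ctla4 and Ikzf2, where 2.83% of all genes did. These Treg markers differed by 0.17, 0.12 and 0.05 (adjusted p = 0.211, 0.272 and 0.634). Equal composition of the samples is therefore not shown. Of the 4 class II chains, H2-Eb1 fell by 0.69 on the log2 scale in IIKO chimeras (limma adjusted p = 0.00746). The other 3 did not pass: H2-Aa differed by -0.77 and H2-Ab1 by -0.71 (adjusted p = 0.166 and 0.207), and Cd74, the invariant chain, had the opposite sign (0.57, 95% confidence interval 0.20 to 0.94; adjusted p = 0.174). In bulk samples, fewer cells of a type and less RNA per cell cannot be told apart. Values are the deposited log2 expression (RMA). Limma p values were adjusted by Benjamini-Hochberg across the 19937 genes and called under 0.05; a difference is always IIKO minus WT. Precision is limited by the number of arrays.

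Of the 50 proteasome genes, 0 passed the test in either direction, where 0.286% of all genes tested (57) did. Limma adjusted p values of the members ran from 0.211 to 0.987. At an unadjusted limma p under 0.05 there were 3 members, 1 higher (Psme4) and 2 lower (Psmb5 and Psmb6) in IIKO chimeras. That is 6.0% of the members, against 17.3% of all genes (5.27% higher and 12.0% lower). Differences ran from -0.17 for Psmg2 to 0.14 for Psme4, with 37 members negative and 13 positive and a median of -0.02; over all genes 62.9% were negative and the median was -0.04. The 95% confidence intervals of all 50 differences lay between -0.43 and 0.31, that is within 1.35-fold lower and 1.24-fold higher; each interval is for its gene alone.

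**Figure D1:**
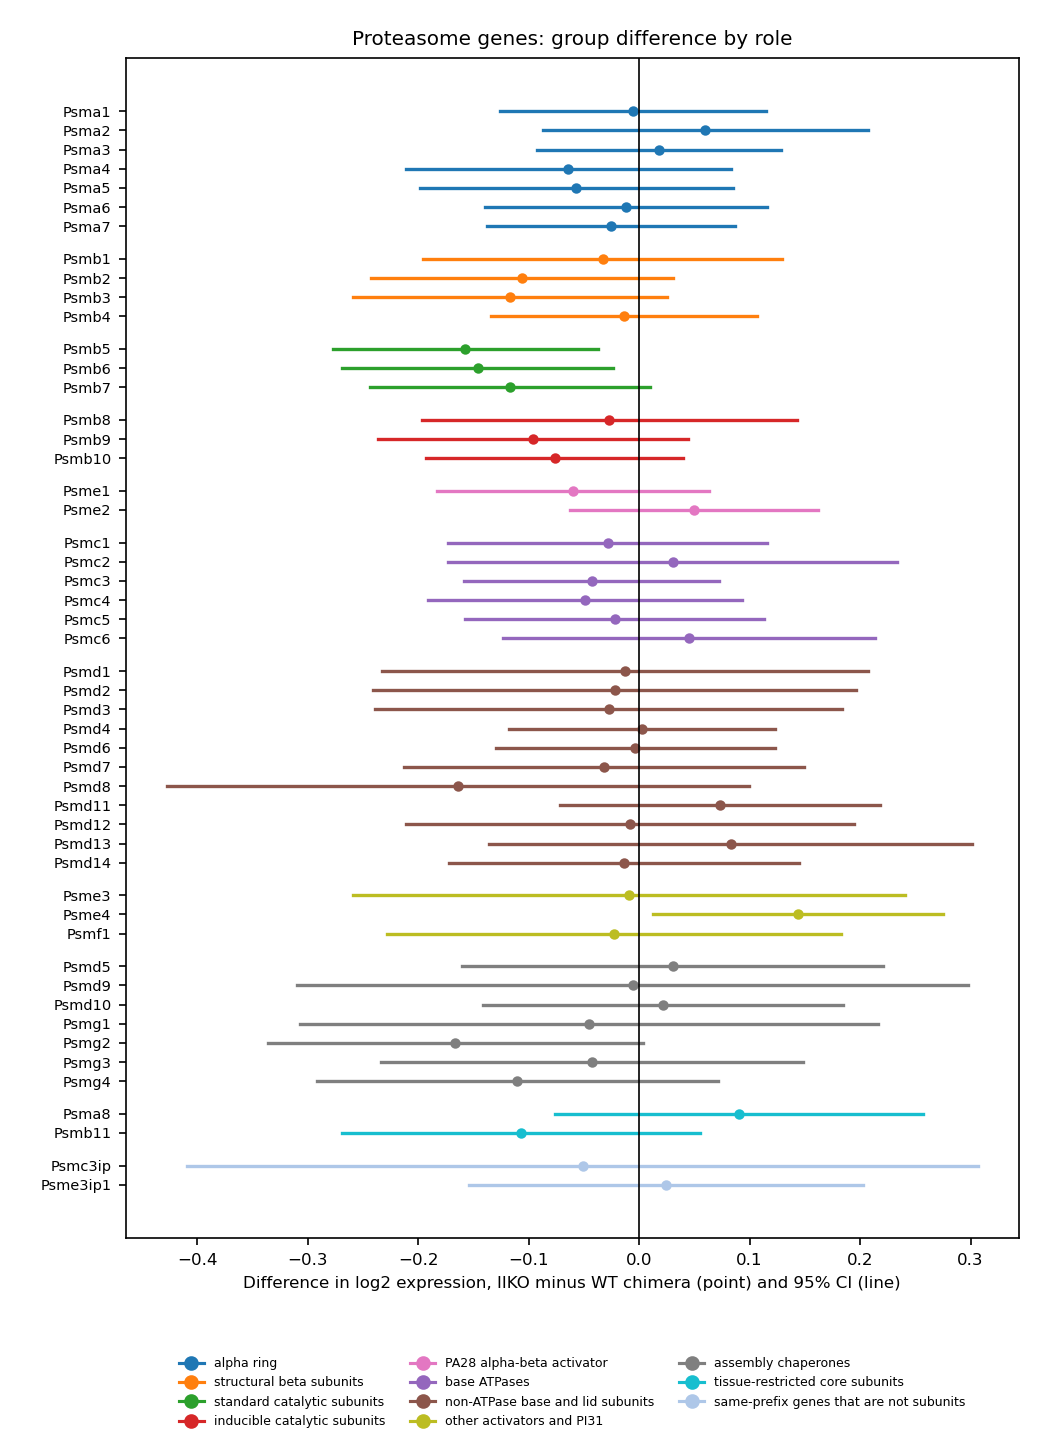
Difference in log2 expression between IIKO and WT chimera Tregs (horizontal axis; points, with lines for the 95% confidence interval of limma; 4 arrays per group) for the 50 genes, in blocks and colours by role. Intervals of Psmb5 and Psmb6 lie below 0 and that of Psme4 lies above it, and all others include 0.

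The 3 inducible catalytic subunits had negative differences in IIKO chimeras, and 0 of them passed the test. Psmb8 was at 11.45, 11.42, 11.41 and 11.21 on WT arrays 1 to 4 and at 11.40, 11.48, 11.29 and 11.21 on IIKO arrays 1 to 4. The groups overlapped over nearly their whole range, with array 4 lowest in both. The difference was -0.03 (95% confidence interval -0.20 to 0.14; limma adjusted p = 0.876), and its sign turned positive (0.02) when arrays were centred on their medians. Psmb9 was at 12.65, 12.68, 12.63 and 12.48 in WT and at 12.50, 12.59, 12.54 and 12.42 in IIKO chimeras. All IIKO arrays lay below WT arrays 1 to 3, and WT array 4 lay among them. The difference was -0.10 (-0.24 to 0.04; adjusted p = 0.440). Psmb10 was at 9.93, 9.98, 9.98 and 9.88 in WT and at 9.90, 9.89, 9.88 and 9.80 in IIKO chimeras. Again WT arrays 1 to 3 stood above all IIKO arrays and WT array 4 did not, for a difference of -0.08 (-0.19 to 0.04; adjusted p = 0.460).

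The 2 subunits of the PA28 ring had differences of opposite sign. Psme1 was at 11.96, 11.94, 11.93 and 11.86 in WT and at 11.78, 11.94, 11.90 and 11.84 in IIKO chimeras, a difference of -0.06 (-0.18 to 0.06; limma adjusted p = 0.584). Psme2 was at 11.21, 11.20, 11.19 and 11.16 in WT and at 11.19, 11.27, 11.29 and 11.20 in IIKO chimeras, a difference of 0.05 (-0.06 to 0.16; adjusted p = 0.627). The groups overlapped for both. A second probe set, annotated to both Psme2 and its near-identical copy Psme2b and so left out by the rule, differed by 0.09. Across the 5 inducible subunits the median difference was -0.06, 4 were negative, and the intervals lay within 1.18-fold lower and 1.12-fold higher.

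The standard catalytic subunits, whose places the inducible ones take, had the lowest median difference of the role blocks (-0.15). Psmb5, the chymotrypsin-like subunit targeted by bortezomib, was at 11.44, 11.46, 11.46 and 11.34 on the WT arrays and at 11.21, 11.32, 11.28 and 11.26 on the IIKO arrays. It was the 1 member of 50 whose groups did not overlap; 7.69% of all genes lay wholly lower and 2.83% wholly higher in IIKO chimeras. The difference was -0.16 (-0.28 to -0.04), and it did not pass over all genes (limma unadjusted p = 0.0153, adjusted p = 0.211). Psmb6, the caspase-like subunit, was at 11.38, 11.38, 11.34 and 11.23 in WT and at 11.24, 11.19, 11.16 and 11.16 in IIKO chimeras. WT array 4 lay just below IIKO array 1, and the other arrays did not overlap. Its difference was -0.15 (-0.27 to -0.02; limma unadjusted p = 0.0240, adjusted p = 0.231). Psmb7, the trypsin-like subunit, was at 11.07, 11.18, 11.17 and 11.02 in WT and at 10.98, 11.04, 11.01 and 10.94 in IIKO chimeras, a difference of -0.12 (-0.24 to 0.01; adjusted p = 0.318). The 3 genes thus had differences of like size, corresponding to folds of 1.12, 1.11 and 1.08, none of them past the test.

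**Figure D2:**
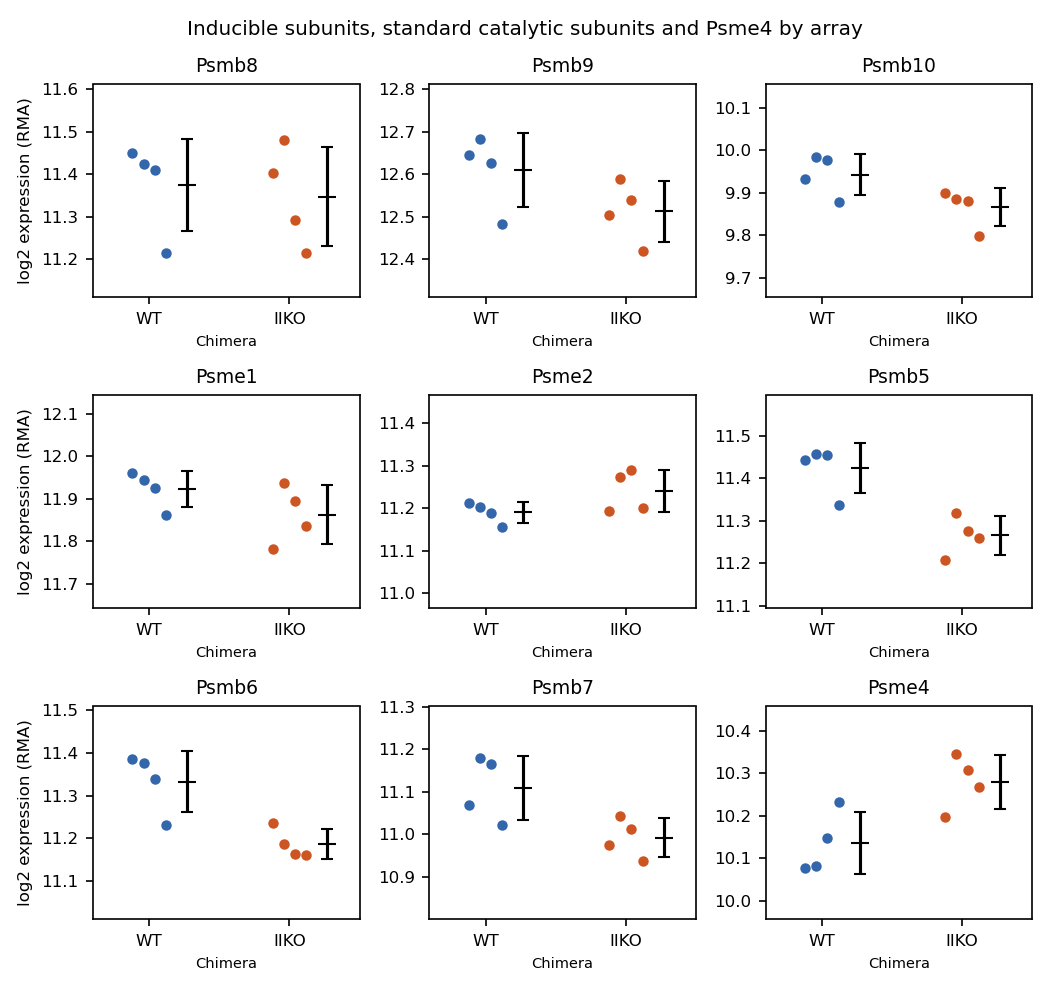
Log2 expression of the 5 inducible subunits, the 3 standard catalytic subunits and Psme4 on each array (points, arrays 1 to 4 from left to right) with the mean and SD of the 4 arrays of a group (dash and bar). Each vertical axis spans 0.5 log2, not starting at 0; the Psmb5 groups do not overlap, the Psmb8 groups overlap almost fully, and array 4 is the lowest WT array for every gene except Psme4.

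Each inducible catalytic subunit was set against its standard counterpart within arrays. Levels of 2 probe sets are not comparable, so only the change of their difference between the groups is given. Psmb8 minus Psmb5 was 0.13 ± 0.06 (SE) higher in IIKO chimeras. It lay between -0.12 and 0.01 on the WT arrays and between -0.04 and 0.19 on the IIKO arrays, which overlap. Psmb9 minus Psmb6 was higher by 0.05 ± 0.04 and Psmb10 minus Psmb7 by 0.04 ± 0.02. Exact permutation tests over the 70 splits (two-sided) gave p = 0.114, 0.314 and 0.171, or 0.257, 0.314 and 0.257 adjusted over the 3 pairs. The smallest p that 4 against 4 arrays allow is 0.0286. Taken as means over genes, the 5 inducible subunits had a WT level of 11.41 ± 0.06 and an IIKO level of 11.37 ± 0.06 (SD over n = 4 arrays), and the 31 constitutive subunits had levels of 10.92 ± 0.08 and 10.89 ± 0.04. The inducible mean minus the constitutive mean thus changed by -0.01, less than its SD between arrays of a group (0.04 in WT and 0.03 in IIKO chimeras).

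In the rest of the core, the alpha ring had 5 negative and 2 positive differences among its 7 genes, from -0.06 for Psma4 to 0.06 for Psma2, and 0 passed. Psma4 had means of 10.98 ± 0.10 (WT) and 10.92 ± 0.07 (IIKO; SD over n = 4 arrays; limma adjusted p = 0.633). Psma2 had means of 11.42 ± 0.12 and 11.48 ± 0.04 (adjusted p = 0.655). The 4 structural beta subunits were all negative. Psmb3 was at 11.38 ± 0.10 and 11.26 ± 0.05, a difference of -0.12 (-0.26 to 0.03; limma adjusted p = 0.364), and Psmb2 at 11.15 ± 0.07 and 11.05 ± 0.08, a difference of -0.11 (-0.24 to 0.03; adjusted p = 0.388). Their groups overlapped. A second Psmb3 probe set differed by -0.12 as well. Probe sets of 2 members disagreed in sign: Psma3, an alpha subunit, differed by 0.02 on the one used and by 0.19 and -0.10 on the others, and Psmc1, a base ATPase, by -0.03 on the one used and 0.10 on the other.

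The regulatory particle showed no shift past the test. Of its 6 ATPases, which unfold substrates and open the core, 4 were negative and 2 positive, from -0.05 for Psmc4, whose sign turned (0.001) with arrays centred on their medians, to 0.05 for Psmc6. Of its 11 non-ATPase subunits, which include the ubiquitin receptors Psmd2 and Psmd4 and the deubiquitinase Psmd14, 8 were negative and 3 positive, and their median was -0.01. Psmd13, a lid subunit, had the largest positive difference among them (0.08; limma adjusted p = 0.678). Psmd8, another lid subunit, had the largest negative one. It was at 10.37, 10.21, 10.39 and 10.12 in WT and at 10.28, 10.31, 9.76 and 10.09 in IIKO chimeras, so that IIKO array 3 lay apart from the other 7 arrays. Its difference was -0.16 with the lowest interval bound of any member (-0.43 to 0.10; adjusted p = 0.485). Leaving out IIKO array 3 took this difference to -0.05.

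Among the other activators, Psme4, which encodes PA200, a nuclear cap that lets the core degrade proteins without ubiquitin, had the largest positive difference of all members. It was at 10.08, 10.08, 10.15 and 10.23 in WT and at 10.20, 10.34, 10.31 and 10.27 in IIKO chimeras. WT array 4 stood above IIKO array 1, and otherwise the groups were apart. The difference was 0.14 (0.01 to 0.27; limma unadjusted p = 0.0345, adjusted p = 0.253). The unadjusted p was not under 0.05 after quantile normalization (difference 0.11), with cyclic loess (0.12), or with any 1 array left out other than WT array 4 or IIKO array 1. Psme3, the nuclear PA28γ, differed by -0.01 and Psmf1, which encodes PI31, by -0.02. The signs of both turned positive (0.04 and 0.03) with arrays centred on their medians.

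Of the 7 assembly chaperones, 5 were negative and 2 positive and 0 passed. Psmg2 (PAC2), which with Psmg1 (PAC1) guides alpha ring assembly, was at 9.10, 9.29, 9.34 and 9.26 in WT and at 8.96 to 9.21 in IIKO chimeras. IIKO arrays 1 and 2 were below every WT array and IIKO arrays 3 and 4 were not. The difference was -0.17 (-0.34 to 0.003; limma adjusted p = 0.295). Psmg4 (PAC4) differed by -0.11 (adjusted p = 0.496), with 1 WT array, at 9.63, above the other 7, which lay between 9.18 and 9.33. Psmb11, the beta subunit of thymic epithelium, and Psma8, the alpha subunit of testis, lay below the median gene level of 7.10, at 6.91 to 7.01 and 5.52 to 5.61 as group means, and differed by -0.11 and 0.09 (adjusted p = 0.459 and 0.541). Psmc3ip differed by -0.05 and Psme3ip1 by 0.02 (adjusted p = 0.888 and 0.893). The sign of Psme3ip1 turned to -0.01 after a further quantile normalization, and that of Psmc3ip held under the scalings tried. Psmc3ip had the widest spread of all members, with an SD of 0.28 in WT and 0.29 in IIKO chimeras.

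The members also varied between arrays of a group. WT array 4 was the lowest WT array for 38 of the 50 members, and IIKO array 4 the lowest IIKO array for 26. Among all genes these arrays were lowest for 26.5% and 20.9%, and among the brightest decile of genes, which holds 36 of the members, for 43.8% and 36.8%. The median member lay 0.08 below its own mean over 8 arrays on WT array 4 and 0.07 below on IIKO array 4. In the regulatory particle, for example, Psmd1, the scaffold of the base, was at 10.23 there and at 10.50 to 10.70 on the other WT arrays, and Psmd12, a lid subunit, at 10.73 against a highest WT value of 11.17. The median SD of a member was 0.11 over WT and 0.07 over IIKO arrays. Over all genes it was 0.098 in both groups. Among genes at or above the median level it was 0.11 in WT and 0.10 in IIKO chimeras. With WT array 4 left out, 4 members were lower at an unadjusted limma p under 0.05 in place of 2, and 0 passed the adjusted test. The share of all genes at that cut is not given for this setting, so the rise is not read as a result about the members.

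**Figure D3:**
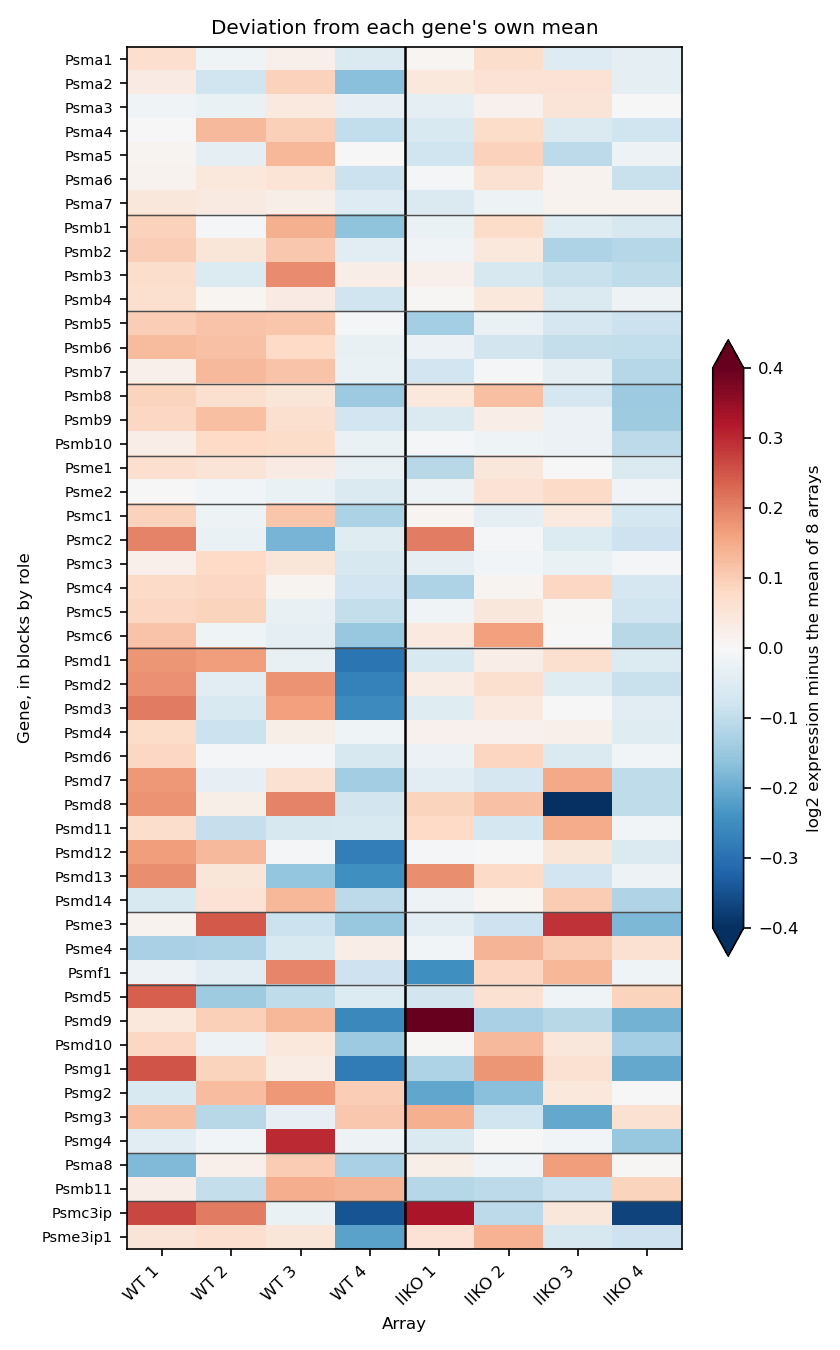
Log2 expression of each of the 50 genes on each of the 8 arrays as a deviation from that gene's own mean (colour, red above and blue below, from -0.4 to 0.4; values beyond take the end colours), with lines between roles and between groups. WT array 4 is blue for most genes (lowest WT array for 38), IIKO array 4 is mostly pale blue (lowest IIKO array for 26), and Psmd8 stands out on IIKO array 3.

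The differences were also read against expression level, because the median difference of all genes varied with it. It was -0.08 in the fourth decile of genes by level, 0.05 in the ninth and 0.03 in the brightest decile, where 37.5% of genes were negative. Of the 36 members in the brightest decile, 28 were negative, with a median of -0.02. The members shared shifts between arrays, as given above, so their signs are not independent observations and these counts were not tested. With arrays normalized by cyclic loess, which takes out shifts that depend on level, 41 of the 50 members were negative against 51.3% of all genes, with medians of -0.04 and -0.003. At an unadjusted limma p under 0.05, 6 members were then lower and 0 higher, and 0 passed the adjusted test. The share of all genes at that cut is not given for cyclic loess. With the deposited values it was 12.0% lower over all genes and 4.56% in the brightest decile. Those shares belong to another scaling and cannot stand in for it. Without a share for cyclic loess, the 6 are not read as a result about the members. After a further quantile normalization 41 members were negative as well, against 65.0% of all genes. Centring arrays on their medians adds 0.05 to the difference of every gene alike, so that it moves signs without moving the members relative to other genes: 15 of the 50 members and 45.5% of all genes were then negative, with medians of 0.03 and 0.01. Psmb5, Psmb6 and Psmb7 stayed negative under each scaling and with each array left out.

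**Figure D4:**
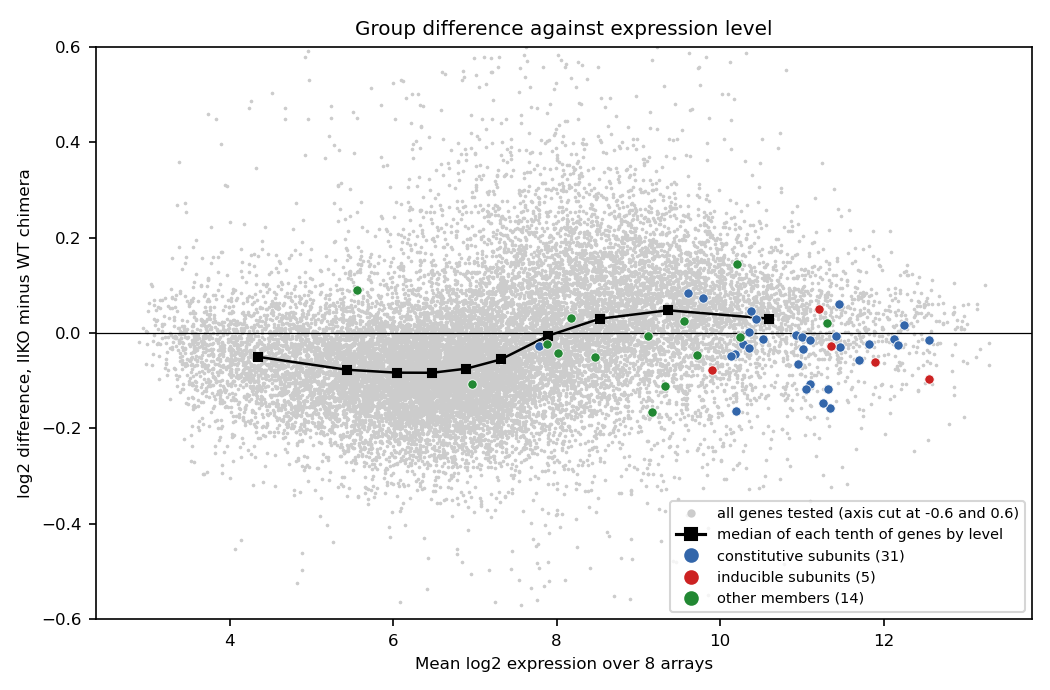
Difference in log2 expression (vertical axis, IIKO minus WT, cut at -0.6 and 0.6) against the mean over 8 arrays (horizontal axis) for all genes tested (grey), the 31 constitutive (blue), 5 inducible (red) and 14 other (green) proteasome genes; black squares are medians of each decile of genes by level. Most members lie at the bright end, where the black line is at 0.03 to 0.05 and 28 of the 36 members of the brightest decile lie below 0.

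The members lie on 16 chromosomes, and 3 are on chromosome 17, which carries the MHC. Psmb9 and Psmb8 lie beside the class II genes: in gene order Psmb9, Tap1, Psmb8, Tap2, H2-Ob and H2-Ab1 follow one another among the genes tested. H2-Ab1, the A beta chain, differed by -0.71 (-1.24 to -0.17; limma adjusted p = 0.207). It was at 8.27 on IIKO array 3 and at 7.08 to 7.65 on the other IIKO arrays. The mean of the 13 myeloid markers was also highest on that array (6.74, with the WT arrays at 6.46 to 6.65). So was the mean of the 8 Treg and T cell markers (11.80, with the WT arrays at 11.69 to 11.74). The B-lineage and cytotoxic means (6.19 and 7.09) were highest there among IIKO arrays only, as WT arrays reached 6.24 and 7.18. The part of any of these in the H2-Ab1 value was not tested. H2-Ob, a chain of the class II modulator H2-O, differed by -0.11 (adjusted p = 0.667). Tap1 and Tap2, the peptide transporter, had positive differences of 0.07 and 0.14 (adjusted p = 0.562 and 0.404). Psmb9 and Tap1, which share most of the promoter window printed above, thus had estimates of opposite sign, neither past the test. Among the 20 tested genes on either side of Psmb8, H2-Eb1 and Btnl2 passed, where 0.286% of all genes did. The neighbours of Psmb9 are largely the same genes and hold the same 2 calls. Psma8, Psmd6 and Psme4 each had 1 neighbour past the test (Npc1, Thrb and Ccdc88a), and the other members had 0.

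Genes that work with the proteasome also had 0 calls. Of 13 measured factors and shuttles bound to it, 11 were positive, with a median of 0.06. Over all genes the median was 0.05 in the ninth decile by level and 0.03 in the brightest, with 33.2% and 37.5% negative. The mean level of this list, and those of the interferon and class I lists below, fall in these deciles. Signs and medians of these lists are therefore not read as particular to them. Usp14, a deubiquitinase of the regulatory particle, had means of 9.10 ± 0.12 (WT) and 9.35 ± 0.11 (IIKO; SD over n = 4 arrays; difference 0.25, limma adjusted p = 0.181), and Ecpas, a proteasome scaffold, differed by 0.15 (adjusted p = 0.273). Of 9 genes of maturation and transcriptional control, Nfe2l2, which encodes NRF2, had the largest difference. It was at 8.69 to 9.01 in WT and at 9.11 to 9.40 in IIKO chimeras (0.36 ± 0.09, SE; adjusted p = 0.154). Pomp, the chaperone that completes the core, differed by -0.11 (adjusted p = 0.288). Among 12 interferon and NLRC5 regulators of the inducible subunits, Rfxank, a partner of NLRC5 at class I promoters, differed by -0.27 and Ifngr1, a chain of the interferon-γ receptor, by 0.18 (adjusted p = 0.157 and 0.291). The list's median was 0.06. Of 12 genes of class I peptide supply 10 were positive (median 0.06), with Pdia3, a disulfide isomerase of the loading complex, at 0.13 (adjusted p = 0.321) and Tap2 as above. Of 8 ubiquitin precursors and activating enzymes only 3 were measured here. Uba6 differed by 0.17 and Uba7 by -0.01 (adjusted p = 0.258 and 0.957); the sign of Uba7 turned to 0.04 with arrays centred on their medians. Across these lists, groups did not overlap for Nfe2l2 and Ecpas (higher in IIKO chimeras, as for 2.83% of all genes) and for Pomp and Rfxank (lower, as for 7.69%).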

How the data were processed

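RNA of 8 samples, 4 per group, was measured on 1 Affymetrix array each. The authors deposited 1 log2 value for each probe set. The submitters' processing notes name affy and RMA, without versions or a genome build. RMA corrects background, normalizes arrays to common quantiles and summarizes probes. Scanner data were not used here.

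Of 34760 probe sets, 21640 had 1 gene symbol in the platform annotation, 1321 several and 11799 none; only the first kind was used. Per gene the probe set with the highest mean over 8 arrays was kept (19937 genes); 5 members had several. All 50 members matched a RefSeq gene table (GRCm38.p6) by gene identifier, with 0 symbols changed. As the annotation names no build, that table was used for chromosomes and gene order alone; promoter windows carry its coordinates.

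The test was limma's lmFit and eBayes (limma 3.58.1, R 4.3.3; both groups, no covariate, 6 residual degrees of freedom, two-sided), checked on simulated arrays. The catalytic pairs were compared by exact permutation. Genes named are the inducible subunits, their counterparts, special members, every member at an unadjusted p under 0.05 or without overlap, the 2 largest differences of each role, and the 2 smallest p of each related list. Genes outside that rule (such as Psmd1, Psmd12, H2-Ob and neighbours) were named after their values were seen. The members and lists were chosen with earlier results of these data known. Alternatives were a threshold of 0.01, the replicate block, quantile, median and cyclic loess scaling, the brighter genes alone (48 members), trended robust variance, array weights, the mean of probe sets, and each array left out; all non-inducible members as the constitutive group were added after the data were seen. Plots used matplotlib 3.10.9 (Python 3.11.15).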

Additional observations from a re-analysis of the deposited data

Results flagged for a closer look

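For 6 of the 76 groups of 4 arrays behind the genes named, 1 array lay far from the other 3 (its gap to the nearest exceeded 0.829 of the group's range). Chance gives about 1 in 20. Psmb5 was at 11.34 on WT array 4, with the other WT arrays at 11.44 to 11.46. Psme3ip1 was at 9.34 on WT array 4, with the highest of the others at 9.62. Psmg4 was at 9.63 on WT array 3, with the others at 9.29 to 9.32. Psma4 was at 11.02 on IIKO array 2, with the others at 10.87 to 10.89. Psmb11 was at 7.05 on IIKO array 4, with the others at 6.85 to 6.87. H2-Ab1 was at 7.87 on WT array 2, with the others at 8.30 to 8.39.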

How the results depend on the processing

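The count of proteasome genes past the adjusted limma test was 0 in each direction under every alternative run. The count over all genes was 57, and it was 21 at a threshold of 0.01, 31 with the replicate block and 32 to 50 with 1 array left out (32 without WT 1 or IIKO 2, 33 without WT 3, 35 without IIKO 3, 36 without IIKO 1). Replicate numbers 1 to 3 did not pair the arrays (correlations of same-numbered deviations 0.045, -0.015 and -0.068). For number 4 the correlation was 0.22, and WT array 4 and IIKO array 4 were each other's best match. Members lower at an unadjusted limma p under 0.05 numbered 5 after quantile normalization, 0 with median centring and 6 with cyclic loess, against 2; with 1 array left out they numbered 2 to 4 (4 without WT 4). Members higher numbered 0 after quantile normalization and with cyclic loess, against 1 (Psme4), and 0 to 1 with 1 array left out (1 without WT 4 or IIKO 1, and 0 without any other). Shares of all genes at this cut are given for the main fit only (12.0% lower and 5.27% higher). Counts under the other settings are therefore not read as results about the members. The median of the constitutive subunits ran from -0.071 (without WT 4) to 0.028 (median centring), and was above 0 also without WT 1 (0.0014). Median centring adds 0.05 to every gene alike, and took the share of negative differences over all genes from 62.9% to 45.5%. The inducible minus constitutive change ran from -0.025 to -0.00011.

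Of the values of named members under the other settings, 379 kept their sign and 19 turned it; 0 passed the test. Median centring turned Psmb8 (0.024), Psme3 (0.041), Psmf1 (0.028), Psmc4 (0.0015) and the related gene Uba7 (0.042). Quantile normalization turned Psme3ip1 (-0.013), as did cyclic loess (-0.0045). With 1 array left out, differences ranged from -0.080 to 0.017 for Psmb8, -0.17 to 0.063 for Psmc3ip, -0.11 to 0.071 for Psme3, -0.0021 to 0.090 for Psmc6, -0.043 to 0.056 for Psme3ip1, -0.070 to 0.055 for Psmf1 and -0.052 to 0.032 for Uba7. The causes were not tested. Signal over background could not be examined without scanner data.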
